A study of Schmidtea mediterranea with 16 samples.

Results

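PC2 and ChAT are transcripts of differentiated neurons, and their levels were followed here in sorted planarian X1 cells, a gate of dividing cells. The members are 2 genes of the 26833 in the deposited count table, identified as dd_Smed_v6_1566_0_1 (PC2, prohormone convertase 2) and dd_Smed_v6_6208_0_1 (ChAT, choline acetyltransferase). They were chosen by name, as markers of neurons, and both passed the filter on low counts. The files give identifiers of a transcriptome assembly without gene names, so the names are those of the choice of members and were not checked against sequence, and no chromosome position is given.

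Prohormone convertase 2 is a protease of the regulated secretory pathway that cuts neuropeptide and hormone precursors into active peptides, and its transcript is used to mark the planarian nervous system broadly. Choline acetyltransferase makes the transmitter acetylcholine and marks cholinergic neurons, which are abundant in the planarian brain and nerve cords. Neurons do not divide, so a gate for cells with a high DNA content is aimed at neoblasts, the dividing stem cells, and not at neurons. Irradiation removes dividing cells from planarians.

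The study asked how knockdown of atm, which encodes a kinase of the response to DNA breaks, affects X1 cells of Schmidtea mediterranea. All 16 libraries were made from poly(A) RNA of sorted X1 cells, 4 in each of 4 groups. Animals received unc-22(RNAi), directed at a nematode muscle gene and commonly used as a planarian control, or atm(RNAi), and were left unirradiated or received 2000 rads with collection 1 day later. Every group had thus undergone RNA interference, and no library without it was analysed here. The labels do not say how many animals a library pooled, or that replicates came from separate cultures of animals, so p values measure the spread between these libraries, which may be technical in part. No gene is identified as atm in the files, so its level is not analysed here and the RNAi groups are as labelled.

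Gene totals were 17.8 to 26.5 M reads in unirradiated unc-22(RNAi), 18.8 to 25.3 M in unirradiated atm(RNAi), 6.99 to 15.1 M in irradiated unc-22(RNAi) and 13.9 to 21.8 M in irradiated atm(RNAi) (M, 1000000 reads). The share of unmapped reads was 50.5% to 70.9% in irradiated unc-22(RNAi) and 24.8% to 46.4% in the other 3 groups. Irradiated unc-22(RNAi) therefore differed from the other groups in depth and in mapping, and the part of either in the results below was not tested. Levels are given as CPM, reads of a gene per 1000000 reads of its library after TMM scaling.

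Both transcripts were present in every library before any irradiation. PC2 had 121, 106, 105 and 101 CPM in unirradiated unc-22(RNAi) replicates 1 to 4, a mean of 108 ± 8.86 CPM (SD, n = 4). In unirradiated atm(RNAi) replicates 1 to 4 it had 95.3, 112, 109 and 101 CPM, a mean of 104 ± 7.77 CPM (SD, n = 4). These 8 libraries lay close together and the groups overlapped. The SD of PC2 in log2 CPM was 0.11 in each unirradiated group, and a larger SD was found for 88.7% of tested genes under unc-22(RNAi) and for 83.4% under atm(RNAi).

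ChAT was more variable in unirradiated cells. Its level was 22.9, 13.9, 13.01 and 6.52 CPM in unc-22(RNAi) replicates 1 to 4, with a mean of 14.1 ± 6.73 CPM (SD, n = 4). It was 12.4, 17.2, 18.6 and 15.5 CPM in atm(RNAi) replicates 1 to 4, with a mean of 15.9 ± 2.65 CPM (SD, n = 4). Replicate 4 of unc-22(RNAi) was the lowest and replicate 1 the highest, and the atm(RNAi) libraries fell between them. The lowest value rested on 163 reads, with an exact (Clopper-Pearson) 95% interval of 5.56 to 7.60 CPM, which lies apart from the interval of 20.9 to 25.0 CPM in replicate 1. Such intervals cover counting error within 1 library and not the spread between libraries. PCR copies of a molecule were not told apart by identifiers, so the intervals may be too narrow even for counting error.

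**Figure D1:**
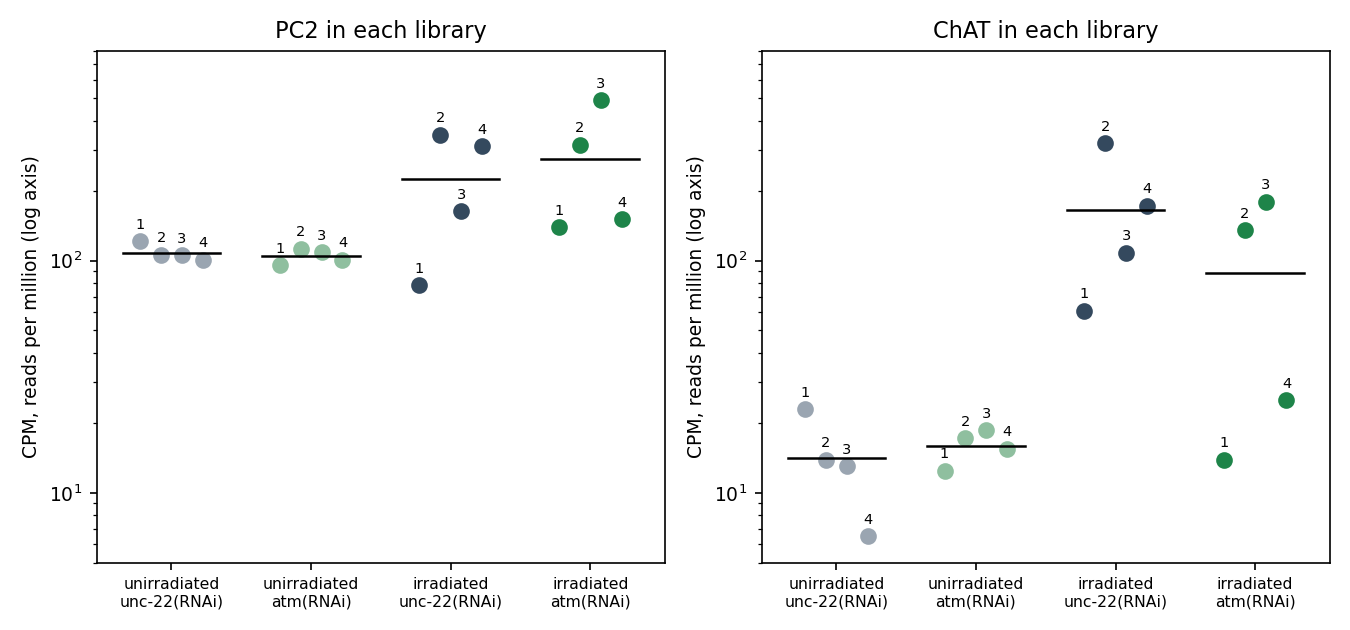
PC2 (left) and ChAT (right) in CPM on a log axis, with 1 point per library, its replicate number above it and a line at the mean of each group of 4. The unirradiated libraries of PC2 sit between 95.3 and 121 CPM, while the irradiated ones spread from 78.2 to 490.0 CPM; for ChAT, irradiated atm(RNAi) replicate 1 sits among the unirradiated libraries.

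The first comparison asked how irradiation changed the neuronal transcripts in control X1 cells. ChAT rose in unc-22(RNAi) from 14.1 ± 6.73 to 165 ± 113 CPM (SD, n = 4 each). PC2 rose from 108 ± 8.86 to 225 ± 126 CPM (SD, n = 4 each). Per library, ChAT had 60.8, 320.0, 108 and 172 CPM in irradiated replicates 1 to 4, all above the 4 unirradiated libraries. PC2 had 78.2, 347, 163 and 311 CPM in the same libraries. Replicate 1 of PC2 was below every unirradiated library and the other 3 were above all of them, so the groups of PC2 overlapped.

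The log2 fold change of ChAT was 3.56 ± 0.68 (SE), an 11.8-fold rise with a 95% interval of 4.39 to 31.5-fold and an adjusted p of 0.000474 (edgeR quasi-likelihood test, Benjamini-Hochberg over 17843 tested genes). That of PC2 was 1.06 ± 0.39 (SE), a 2.08-fold rise with a 95% interval of 1.18 to 3.66-fold and a Benjamini-Hochberg p of 0.0326 (same edgeR test). Thus both members were called higher, in a comparison where 23.8% of all tested genes were called higher at an adjusted p under 0.05. A rise without overlap, as for ChAT, was seen in 18.8% of tested genes. Larger log2 fold changes than that of ChAT were found in 4.32% of tested genes and larger ones than that of PC2 in 31.6%, against a median of 0.17 over all tested genes. CPM is a share of a library, so these rises are relative to the other RNA in it. In RNA of a whole sorted population, more cells of a type, more RNA per cell and less RNA of other cells cannot be told apart.

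The call of ChAT held without each single library of the 16, with log2 fold changes between 3.01 and 3.89. Its log2 fold change was 3.81 in sequencing lane 7 alone, where it was called. In lane 8 alone it was 3.40 and was not called (edgeR, adjusted p = 0.114). A lane holds 2 libraries of each group. Lane numbers were read from the names of the deposited counts per library, and no sample label gives them. The call of PC2 was lost without unirradiated replicate 1, 2, 3 or 4 (log2 fold changes of 1.11, 1.02, 0.96 and 1.00) and without irradiated replicate 2 or 4 (0.76 and 0.85), with adjusted p from 0.0512 to 0.126 (edgeR quasi-likelihood). PC2 was at 1.16 in lane 7 alone and 0.94 in lane 8 alone, called in neither, and an exact two-sided permutation of its log2 CPM gave a p of 0.171, against 0.0286 for ChAT, the smallest that 70 splits of 4 against 4 libraries allow.

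The same comparison under atm(RNAi) asked whether the neuronal transcripts moved with irradiation when atm was targeted. Mean PC2 was 104 ± 7.77 CPM before and 274 ± 165 CPM after irradiation (SD, n = 4 each), and ChAT rose from 15.9 ± 2.65 to 88.4 ± 81.7 CPM (SD, n = 4 each). The irradiated replicates 1 to 4 had 139, 316, 490.0 and 151 CPM of PC2. All 4 were above the 4 unirradiated libraries. For ChAT they had 13.9, 135, 179 and 25.1 CPM. Replicates 2 and 3 were far above the unirradiated range of 12.4 to 18.6 CPM, replicate 4 was just above it, and replicate 1 lay inside it. The 12.9-fold span of ChAT within this group was the widest of either member in any of the 4 groups, and 5.59% of tested genes had a larger SD there.

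The log2 fold change of ChAT was 2.47 ± 0.65 (SE), or 5.54-fold with a 95% interval of 2.16 to 14.2-fold, with a Benjamini-Hochberg adjusted p = 0.0427 (edgeR). For PC2 it was 1.39 ± 0.39 (SE), or 2.63-fold with a 95% interval of 1.49 to 4.64-fold, with a Benjamini-Hochberg adjusted p = 0.0531 (edgeR), which misses 0.05. One of the 2 members, ChAT, was therefore called higher, where 2.42% of all tested genes were. Separation without overlap, as PC2 showed, was found in 6.83% of tested genes. Of all tested genes, 4.14% had a larger log2 fold change than ChAT and 13.5% a larger one than PC2.

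Both adjusted p values lay near the threshold. The call of ChAT was lost without any 1 of the 4 unirradiated atm(RNAi) libraries, unirradiated unc-22(RNAi) replicate 1, 2 or 3, replicate 3 or 4 of irradiated unc-22(RNAi), or replicate 2 or 3 of irradiated atm(RNAi), with log2 fold changes of 1.86 to 2.55 and adjusted p of 0.0516 to 0.154 (edgeR quasi-likelihood). PC2 was called without irradiated atm(RNAi) replicate 1 (1.64) or 4 (1.58), and likewise without replicate 1 (1.38) or 2 (1.39) of irradiated unc-22(RNAi), with adjusted p of 0.0115 to 0.0397 (edgeR quasi-likelihood). Within lanes the log2 fold changes were 2.48 and 2.37 for ChAT and 1.52 and 1.17 for PC2 in lanes 7 and 8, called in neither. Exact two-sided permutation of log2 CPM gave a p of 0.0286 for PC2, whose groups did not overlap, and 0.114 for ChAT, whose groups did.

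**Figure D2:**
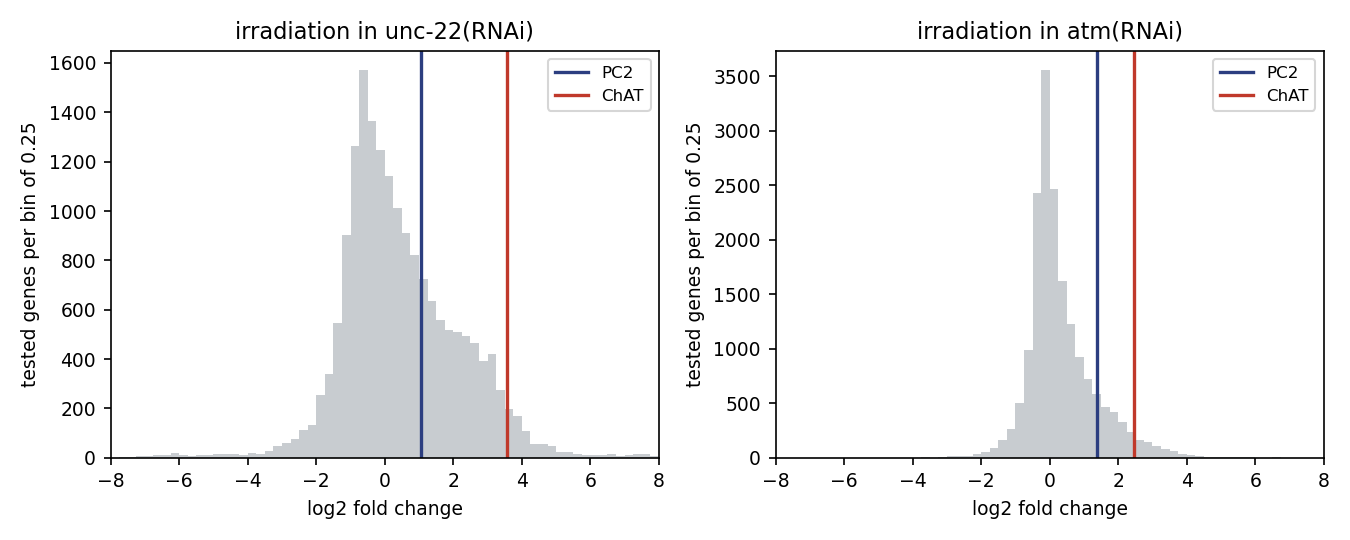
Number of tested genes per bin of 0.25 in log2 fold change with irradiation in unc-22(RNAi) (left) and atm(RNAi) (right), with lines at PC2 and ChAT. In the left panel 13 of 17843 genes lie beyond the axis. ChAT sits in the right tail in both panels, at 3.56 and 2.47, and PC2 nearer the bulk at 1.06 and 1.39.

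Knockdown of atm without irradiation asked whether the neuronal transcripts differed before any DNA damage by irradiation. The log2 fold change of atm(RNAi) against unc-22(RNAi) was -0.05 ± 0.38 (SE) for PC2, with a 95% interval of -0.86 to 0.75. For ChAT it was 0.18 ± 0.62 (SE), with a 95% interval of -1.13 to 1.49. Neither was called (adjusted p of 1, edgeR quasi-likelihood), and 0% of all tested genes were. In this comparison 278 of 17843 tested genes had an unadjusted p under 0.05 by edgeR, fewer than that threshold would pass if no gene differed. DESeq2 called 1 gene, limma-voom 0 and limma-voom with a spread per group 1. The intervals run from 0.55 to 1.69-fold for PC2 and from 0.46 to 2.80-fold for ChAT, so equal levels are not shown. They rest on a spread shared by all 4 groups. PC2 had an SD in log2 CPM of 0.11 in each unirradiated group, against 0.99 and 0.87 in irradiated unc-22(RNAi) and atm(RNAi). Its interval is thus wider than its unirradiated libraries alone would give. With the compared groups alone, the unadjusted edgeR p of PC2 was 0.523 (log2 fold change -0.056), against 0.890 in the main fit.

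In irradiated cells the members leaned in opposite directions between the RNAi groups, without either passing the test. PC2 had 274 ± 165 CPM in atm(RNAi) and 225 ± 126 CPM in unc-22(RNAi) (SD, n = 4 each), which gave a difference of 0.28 ± 0.38 (SE) in log2 and a 95% interval of -0.52 to 1.09. ChAT had 88.4 ± 81.7 CPM in atm(RNAi) and 165 ± 113 CPM in unc-22(RNAi) (SD, n = 4 each), which gave a difference of -0.91 ± 0.61 (SE) in log2 and a 95% interval of -2.19 to 0.38. After Benjamini-Hochberg adjustment the edgeR p was 0.666 for PC2 and 0.336 for ChAT, in a comparison where 14.8% of all tested genes were called in either direction. The libraries of the RNAi groups overlapped for both genes. Without irradiated atm(RNAi) replicate 3, the highest library of PC2, its log2 fold change became -0.15.

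The interaction tested whether irradiation moved a gene by a different factor under atm(RNAi) than under unc-22(RNAi). It was 0.34 ± 0.54 (SE) in log2 for PC2, with a 95% interval of -0.80 to 1.48, and -1.08 ± 0.87 (SE) for ChAT, with a 95% interval of -2.92 to 0.75. A positive value means a larger rise under atm(RNAi). The edgeR p after adjustment was 0.768 for PC2 and 0.503 for ChAT, and 3.58% of all tested genes were called. A weaker or a stronger response of either neuronal transcript under atm(RNAi) was thus not detectable with this spread between libraries. Without irradiated atm(RNAi) replicate 3 the value of PC2 was -0.10.

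**Figure D3:**
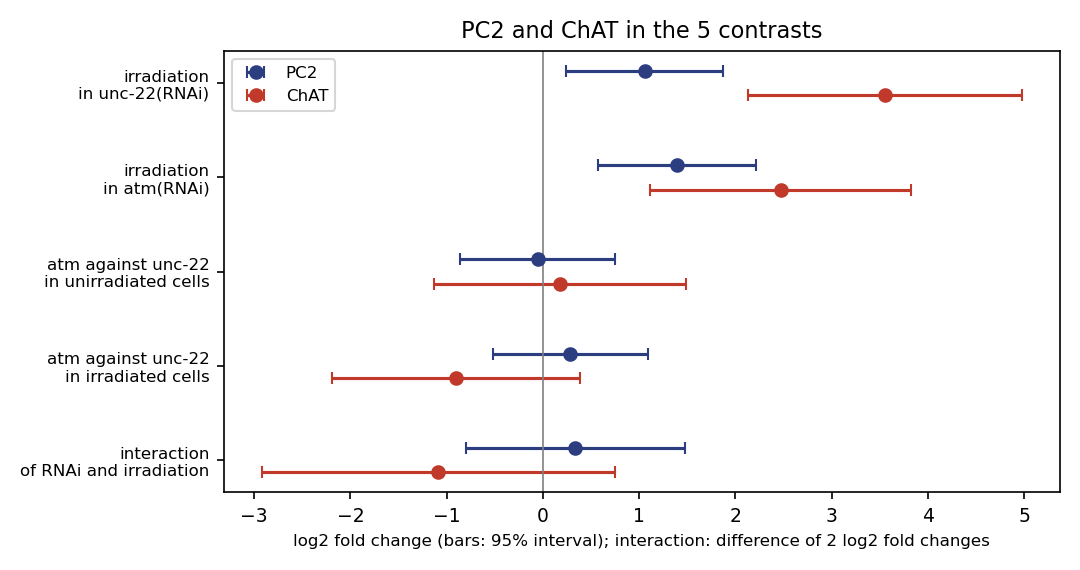
Log2 fold changes of PC2 and ChAT in the 5 contrasts, with 95% intervals derived from the edgeR F statistic as bars and a line at no change. The bars lie above 0 for both genes with irradiation in each RNAi group and cross 0 in the other 3 contrasts.

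From low to high, mean ChAT ran from unirradiated unc-22(RNAi) and unirradiated atm(RNAi) through irradiated atm(RNAi) to irradiated unc-22(RNAi). The unirradiated neighbours did not differ in the test, nor did the irradiated ones. Mean PC2 ran from unirradiated atm(RNAi) and unirradiated unc-22(RNAi) through irradiated unc-22(RNAi) to irradiated atm(RNAi), and only the step between the unirradiated and the irradiated unc-22(RNAi) groups passed the test between neighbours. Over all 16 libraries PC2 ranged 6.27-fold, from 78.2 to 490.0 CPM, and ChAT ranged 49.1-fold, from 6.52 to 320.0 CPM. An SD of log2 CPM over the 16 libraries larger than that of ChAT was found in 5.44% of tested genes, and larger than that of PC2 in 49.9%.

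The libraries had the same order for both genes in 3 of the 4 groups. From low to high this was replicate 4, 3, 2 and 1 in unirradiated unc-22(RNAi), replicate 1, 3, 4 and 2 in irradiated unc-22(RNAi), and replicate 1, 4, 2 and 3 in irradiated atm(RNAi). In unirradiated atm(RNAi) the orders differed. In irradiated unc-22(RNAi) replicate 2, the highest for both genes, had 70.9% of its reads unmapped and replicate 1, the lowest, had 65.6%, while replicates 3 and 4 had 50.5% and 58.5%. In irradiated atm(RNAi) replicates 1 to 4 had 36.9%, 43.7%, 38.7% and 39.6% unmapped reads, and replicate 1 was the lowest in both genes and in unmapped share. The part of mapping in the spread of either gene was not tested.

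**Figure D4:**
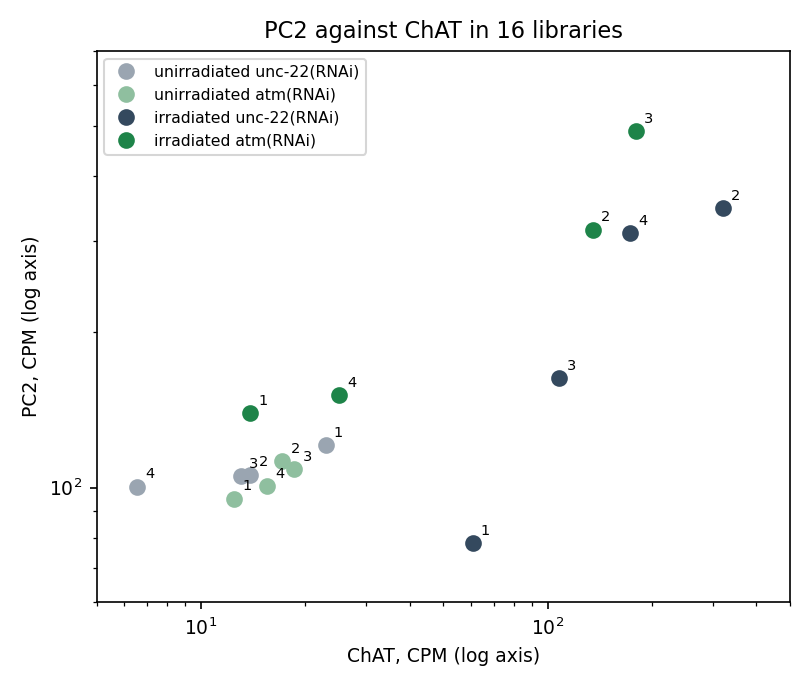
PC2 against ChAT in CPM, both on log axes, with 1 point per library, colours for the 4 groups and replicate numbers beside the points. At a like level of PC2, irradiated atm(RNAi) libraries lie to the left of irradiated unc-22(RNAi) ones: replicate 2 of atm(RNAi) had 316 CPM of PC2 with 135 of ChAT, and replicate 4 of unc-22(RNAi) had 311 with 172.

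PC2 and ChAT were then set against each other inside each library, as the log2 ratio of their reads, which does not depend on how libraries are scaled. The ratio fell with irradiation in unc-22(RNAi), since ChAT rose by a larger factor than PC2. In reads of PC2 per read of ChAT, unirradiated unc-22(RNAi) replicates 1 to 4 had 5.29, 7.64, 8.09 and 15.4, and irradiated ones had 1.29, 1.09, 1.51 and 1.80. The irradiated libraries were all far below the unirradiated ones. Transcript lengths were not used here, so a ratio tells of a change between groups and not of which gene is expressed more.

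Under atm(RNAi) the unirradiated libraries had 7.67, 6.56, 5.84 and 6.49 reads of PC2 per read of ChAT, and the irradiated ones had 10.02, 2.34, 2.73 and 6.02. Replicates 2 and 3 were below the unirradiated range, replicate 4 was inside it and replicate 1 was above it. With PC2 counted by its own identifier alone, all 4 irradiated atm(RNAi) libraries had a higher ratio than the 4 irradiated unc-22(RNAi) libraries. How often the ratio of other gene pairs separates between these groups was not determined.

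The mean log2 ratio was 3.07 ± 0.64 (SD, n = 4) in unirradiated and 0.48 ± 0.31 in irradiated unc-22(RNAi), a difference of -2.59 (exact two-sided permutation p = 0.0286, 0.0476 after Benjamini-Hochberg adjustment over 5 tests). It was 2.72 ± 0.16 (SD, n = 4) in unirradiated and 2.15 ± 0.99 in irradiated atm(RNAi), a difference of -0.58 (exact permutation p = 0.343, adjusted 0.371). Between the RNAi groups it differed by 1.66 in irradiated cells (exact permutation p = 0.0286, adjusted 0.0476), a 3.17-fold higher ratio under atm(RNAi), while the unirradiated RNAi groups differed by -0.35 (exact permutation p = 0.371, adjusted 0.371). The irradiation effect on the ratio differed between the RNAi groups by 2.01 in log2 (exact permutation p = 0.00571 over 4900 regroupings of the RNAi labels, adjusted 0.0286). Within lanes this difference was 2.15 in lane 7 (exact permutation p = 0.0556) and 1.88 in lane 8 (exact permutation p = 0.278), where 2 libraries per group leave little room for a small p. Without any 1 library it lay between 1.62 and 2.32, and its adjusted p rose above 0.05 without irradiated unc-22(RNAi) replicate 1 (difference 1.98), 2 (1.89), 3 (2.05) or 4 (2.14) or unirradiated unc-22(RNAi) replicate 4 (1.72), reaching at most 0.0952 (exact permutation). The exact two-sided p of the other differences was computed by doubling the smaller tail, whereas that of the interaction counted absolute differences. Computed by doubling, it cannot go below 0.0571 with 3 libraries against 4 others. By this rule the calls of the other differences could not survive the loss of a library they use. Through the adjustment over 5 tests, the call of irradiation in unc-22(RNAi) was also lost without any 1 irradiated atm(RNAi) library, and that of atm against unc-22 in irradiated cells without any 1 unirradiated unc-22(RNAi) library (exact permutation, adjusted p = 0.0714). The exact permutation p of 0.00571 assumes that RNAi changed the ratio in neither irradiation state and that spreads were alike. It is therefore not a strict test of equal irradiation effects, and the SDs of the groups ran from 0.16 to 0.99.

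**Figure D5:**
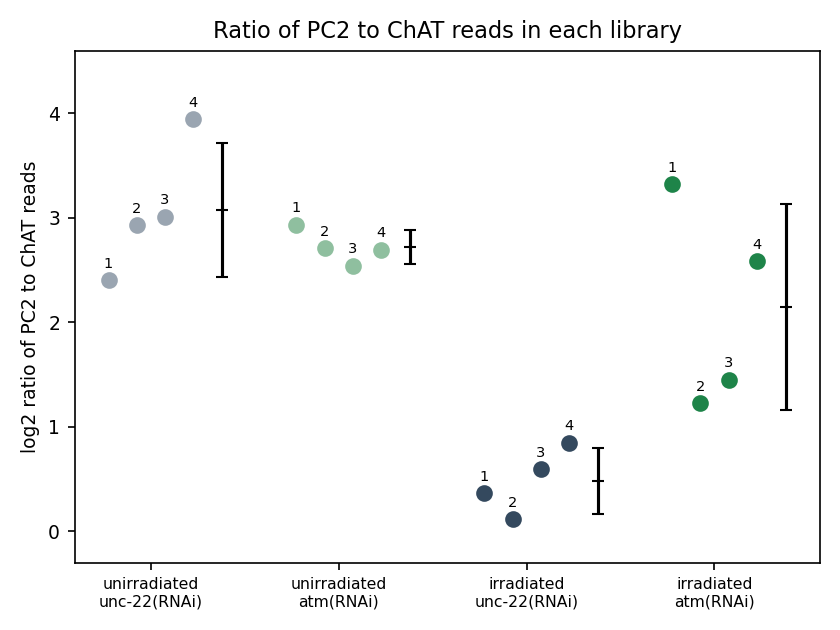
Log2 ratio of PC2 to ChAT reads per library, with replicate numbers above the points and the mean ± SD of each group of 4 as a black bar. Irradiated unc-22(RNAi) lies lowest, between 0.12 and 0.85, and does not overlap any other group; irradiated atm(RNAi) spreads from 1.22 to 3.32.

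One gene with an identifier close to that of PC2 did not follow it. The gene dd_Smed_v6_1566_1_1 shares the first number of its identifier with PC2, the second number sets them apart, and the files give it no name. Its mean was 221 ± 18.3 CPM in unirradiated and 143 ± 31.2 CPM in irradiated unc-22(RNAi) (SD, n = 4 each), which is -0.63 ± 0.15 (SE) in log2 (edgeR, adjusted p = 0.00274), in a comparison where 23.5% of tested genes were called lower. In atm(RNAi) it was 214 ± 2.33 and 208 ± 29.2 CPM (SD, n = 4 each), which is -0.04 ± 0.15 (SE) in log2 (edgeR, adjusted p = 0.934), where 3.58% of tested genes were called in either direction. It thus fell in the comparison in which PC2 rose. Whether both identifiers belong to 1 locus was not tested. The rise of PC2 in unc-22(RNAi) and the ratio of PC2 to ChAT hold for its own identifier alone. Summed over both identifiers, unc-22(RNAi) had 329 ± 20.6 CPM before and 367 ± 97.3 CPM after irradiation (SD, n = 4 each), with overlapping libraries. In atm(RNAi) the sum was 318 ± 8.59 CPM before and 482 ± 166 CPM after (SD, n = 4 each), without overlap. Irradiated unc-22(RNAi) replicate 1 had a summed 249 CPM with 60.8 CPM of ChAT. Irradiated atm(RNAi) replicates 2 and 3 had 480 with 135 and 717 with 179. The ratio of the sum to ChAT was thus higher in the former, so the irradiated groups overlapped in it. The other irradiated unc-22(RNAi) libraries stayed below all irradiated atm(RNAi) ones. This sum was formed after the data were seen and was not tested. Reads that map to several places, 4.37% to 11.5% of the reads of a library, are outside the counts, so reads shared by such identifiers would be missing from both and the level of PC2 is uncertain to that extent. ChAT had no such companion, and each member had 1 transcript in the files.

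Reads on the opposite strand were few for both members. They made up 0.61% to 2.698% of the reads of PC2 and 0% to 6.54% of those of ChAT over the 16 libraries, against 1.33% to 2.42% over all genes. The highest share of ChAT was 17 of 260 reads, in unirradiated atm(RNAi) replicate 1.

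Finally, genes were ranked by how closely their log2 CPM, each centred on its own mean, followed a member over the 16 libraries, among the 13950 other genes with a mean of at least 1 CPM. Closest to PC2 were dd_Smed_v6_6994_0_1, dd_Smed_v6_7562_0_1 and dd_Smed_v6_3214_0_1, with root mean square differences of 0.30, 0.30 and 0.31 in log2 CPM against a median of 1.02 over all genes compared. The first of them had 23.4 ± 3.86 CPM in unirradiated and 65.8 ± 41.8 CPM in irradiated unc-22(RNAi), and 27.2 ± 3.20 and 52.4 ± 30.4 CPM in the atm(RNAi) groups (SD, n = 4 each). Its irradiated mean was thus lower under atm(RNAi), where that of PC2 was higher. Closest to ChAT were dd_Smed_v6_15437_0_1, dd_Smed_v6_4147_0_1 and dd_Smed_v6_7278_0_1, with differences of 0.36, 0.36 and 0.38 against a median of 1.79. The second of these had 4.46 ± 1.45 CPM in unirradiated and 44.9 ± 30.0 CPM in irradiated unc-22(RNAi), and 4.88 ± 0.75 and 26.7 ± 23.2 CPM in the atm(RNAi) groups (SD, n = 4 each). The files give none of these 6 genes a name. PC2 and ChAT themselves differed by 1.12, which put ChAT at place 9033 of the 13950 genes ranked for PC2 and PC2 at place 1885 for ChAT. By this measure each neuronal transcript therefore had many genes closer to it over these libraries than the other. The measure counts the size of changes as well as their direction. The SD of log2 CPM over the 16 libraries was 1.74 for ChAT and 0.80 for PC2. The places therefore do not tell whether the members rose and fell together.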

How the data were processed

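Raw read counts per gene were deposited for 16 libraries, with a file of counts per transcript and strand for each. Trim Galore 0.6.5 and STAR 2.7.9 are named per the submitters' processing notes; settings and the reference build are not given in the sources used here. All 429328 cells of the deposited count matrix equalled the reverse-strand counts summed per gene, and 0 columns were left without a sample. The test across genes was that of edgeR 4.0.16 (R 4.3.3): filterByExpr kept 17843 and removed 8990 genes, scaling was TMM, and 1 quasi-likelihood fit over all libraries had a coefficient per group, without covariates (12 residual degrees of freedom). Calls are adjusted p values under 0.05 (Benjamini-Hochberg over all tested genes). Log2 CPM used a prior count of 2. The log2 ratio of PC2 to ChAT added 0.5 reads and was tested by exact permutation (SciPy 1.17.1). Alternatives used other scaling, no filter, DESeq2 1.42.0, limma 3.58.1, lane, strand, transcript, a replicate block and each library left out. The 24 pairs of libraries within groups differed by more than counting noise (the lowest chi-square, divided by its degrees of freedom, was 9.77). Scripts were tested on simulated data.

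Named genes are the members and the 3 genes closest to each. The members and lists were chosen with earlier results of these data known. Lists of other neuronal genes and of markers of neoblasts and epidermal progenitors were not analysed here, since the files pair no identifier with a name.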

Additional observations from a re-analysis of the deposited data

Results flagged for a closer look

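The irradiation effect on the log2 ratio of PC2 to ChAT reads differed between the RNAi groups by 2.01 (exact two-sided permutation of the RNAi labels within each irradiation state, p = 0.00571, 0.0286 after Benjamini-Hochberg adjustment over 5 tests). This permutation assumes no RNAi effect on the ratio in either state, so its p is not a strict test of equal irradiation effects. The ratio was lower in 4 of 4 irradiated unc-22(RNAi) libraries than in every unirradiated one, and lower in 2 of 4 irradiated atm(RNAi) libraries than in every unirradiated atm(RNAi) one. Of single genes, 47.3% were called with irradiation in unc-22(RNAi) and 14.8% between the irradiated groups. How often the ratio of other gene pairs separates was not determined, so the result cannot be called particular to these 2 genes. PC2 was counted by its own identifier alone. With dd_Smed_v6_1566_1_1 added to PC2, the irradiated groups overlapped in the ratio. Gene totals and unmapped shares differed between the irradiated groups as well, and their part in the difference of the ratio of PC2 to ChAT was not tested. No library stood apart from the other 3 of its group in PC2, ChAT or their ratio by Dixon's 95% criterion, in 12 groups of 4 checked.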

How the results depend on the processing

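The direction of all 4 irradiation effects was the same in every alternative run. PC2 in unc-22(RNAi) lost its call with limma-voom (0.86), limma-voom with a spread per group (0.87), and lane 7 (1.16) or lane 8 alone (0.94), and exact permutation missed 0.05 (0.83, unadjusted p = 0.171); leaving out libraries gave 0.76 to 1.27. ChAT there lost it in lane 8 alone (3.40). PC2 in atm(RNAi) was called with no filter (1.31), DESeq2 (1.41), limma-voom with a spread per group (1.195), and the compared groups alone (1.43), and exact permutation passed 0.05 without adjustment (1.198, unadjusted p = 0.0286); leaving out libraries gave 0.95 to 1.64. ChAT in atm(RNAi) lost its call with library totals (2.52), limma-voom (1.74), limma-voom with a spread per group (1.74), the compared groups alone (2.52), lane as a covariate (2.48), lane 7 (2.48) or 8 alone (2.37) and the replicate block (2.13, adjusted p = 0.0545), and exact permutation missed 0.05 (1.77, unadjusted p = 0.114); leaving out libraries gave 1.86 to 2.86. The exact permutation of log2 CPM was chosen after seeing the data. The causes were not tested; fewer libraries were in the lane fits.

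Uncalled differences changed sign. For atm against unc-22 in unirradiated cells, PC2 was at 0.024 in lane 7 alone and -0.088 to 0.00430 with libraries left out, and ChAT at -0.32 in lane 8 alone and -0.055 to 0.52. In irradiated cells PC2 ran from -0.15 to 0.58 with libraries left out, and its interaction from -0.10 to 0.64. The difference of the log2 ratio in unirradiated cells was 0.16 in lane 8 alone.

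The exact tests of the ratio cannot reach the threshold with lane 7 or lane 8 alone, or with the replicate block (sign flips of 4 pairs, smallest p 0.125). In that order irradiation in unc-22(RNAi) gave -2.76, -2.43 and -2.59, atm against unc-22 in irradiated cells 1.30, 2.03 and 1.66, and the interaction 2.15, 1.88 and 2.01. Leaving out libraries gave -2.81 to -2.30, 1.27 to 1.97 and 1.62 to 2.32.

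Replicates 1 and 2 of every group were in lane 8 and replicates 3 and 4 in lane 7. The library numbers in the sample descriptions run in blocks by replicate number, though no label states a shared origin. Deviations of same-numbered libraries correlated above 0.1 in 7 of 24 pairs (range -0.07 to 0.43, the highest for replicates 1 and 2 of the irradiated groups, at 0.43 and 0.31). The numbers were not taken as pairs in the main tests, but whether same-numbered libraries share an origin is not known. The replicate block changed no call of the genes other than that of ChAT in atm(RNAi). Median log2 fold changes of all genes with irradiation in unc-22(RNAi) were 0.17 with TMM, 0.29 with relative log expression factors and 0.32 with library totals; PC2 was at 1.06, 1.19 and 1.24. The share of all genes called ran from 0.311% to 51.9%, 0% to 11.2%, 0% to 0.00668%, 0% to 23.8% and 0% to 8.35% over alternatives in the 5 contrasts. Of the genes called, 67.7% were higher with irradiation in atm(RNAi) with TMM, 57.2% with library totals, 38.8% with limma-voom and 31.8% in lane 7 alone, and 77.3% were higher in atm than in unc-22 in irradiated cells with TMM and 63.1% with relative log expression factors. The first transcript alone gave the same reads for both members.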

Other observations

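The change of each member was also taken as a difference in CPM from the mean of the unirradiated group. In irradiated unc-22(RNAi) replicates 1 to 4, PC2 changed by -30.0, 239, 54.7 and 203 CPM. ChAT gained 46.7, 306, 93.8 and 158 CPM in the same libraries. In irradiated atm(RNAi) replicates 1 to 4, PC2 gained 34.98, 211, 386 and 46.7 CPM. ChAT changed there by -2.03, 119, 164 and 9.16 CPM. ChAT thus gained more CPM than PC2 in 3 of 4 irradiated unc-22(RNAi) libraries, and PC2 more than ChAT in all 4 irradiated atm(RNAi) libraries. These differences were not tested, and reads are not corrected for transcript length.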
